A study of Epimedium pubescens with 27 samples.

Results

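The high-affinity nitrate transporter genes of the leaves of Epimedium pubescens, a perennial herb of the barberry family, are described here for 4 genes: Ebr05G019930 (best match NRT2.5), Ebr03G055670 (NRT2.7), Ebr03G038440 (NRT3.1) and Ebr03G038640 (NRT3.1). They were chosen by gene identifier from the nitrate transporter genes that the study displayed for its comparison of high with medium nitrate, so measured values of that comparison selected them. They are 4 of the 21 genes whose Swiss-Prot match in the deposited annotation is a high-affinity nitrate transporter, and 4 of 58645 genes in all. The other 17 genes of the family are given by their values.

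Young seedlings, all pre-cultured in the same dilute nutrient solution, were grown in pots of sand and perlite and received nutrient solutions without nitrate (LN, 0 mmol/L), with medium nitrate (MN, 7.5 mmol/L) or with high nitrate (HN, 22.5 mmol/L). Leaves were taken 24, 36 and 48 days after treatment began (DAT; stages S1, S2 and S3), and the RNA of 3 libraries in each of the 9 groups was sequenced, 27 libraries in all. The solutions also differed in the accompanying ions, since sodium nitrate topped up the nitrate and calcium chloride and potassium sulfate balanced the ions, so nitrate and these salts cannot be told apart. By 48 DAT the older leaves were chlorotic in LN and necrotic in HN. The labels do not say whether a library came from 1 plant or several, so p-values measure the spread between these libraries.

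Plants take up nitrate through low-affinity carriers of the NPF family and through the high-affinity NRT2 carriers, which serve when nitrate is scarce. Most NRT2 proteins of Arabidopsis carry nitrate only when a small membrane protein, NRT3 (also called NAR2), binds them. In Arabidopsis, NRT2.5 is known as a plasma membrane carrier of nitrogen-starved plants that also acts in leaf veins, NRT2.7 is a carrier of the vacuole membrane that loads nitrate into seeds and does not need NRT3, and NRT3.1 is the main partner protein. Whether the Epimedium genes keep these roles is known here only from their matches.

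Total counts per library ranged from 13609959 to 18482851 (median 15390848), and 14115 genes had no count in any library. The summed FPKM (fragments per kilobase of gene length, scaled by a factor of each library) of 57 leaf mesophyll markers, such as antenna proteins, was 19953 to 60758.9. That of 3 root endodermis markers, 2 of them without any count, was 0 to 0.692. In 5 of the 9 groups a pair of libraries lay closer together than any pair across groups (MN S1 B and C, LN S2 A and B, MN S2 B and C, HN S2 B and C, HN S3 A and B), with a median absolute log2 ratio of 0.142 to 0.254 over 11273 genes against 0.276 to 0.547 for the other 22 pairs within groups. The counts of these pairs still differed by more than sampling noise, so all 27 libraries were kept. Fewer cells of a type and less RNA per cell cannot be told apart in bulk leaf RNA.

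The 4 genes lie on chromosomes 3 and 5 of the deposited gene coordinates, which follow a published genome of the species without a build name in the sources used here. The NRT2.5 gene Ebr05G019930 spans chr5:148145521-148148129 on the minus strand with a counted length of 1053 bases. NRT2.7, Ebr03G055670, spans chr3:455768779-455773322 on the minus strand with 1362 bases, inside a stretch from 454049214 to 455913644 that holds 7 of the 14 NRT2 genes. The partner gene Ebr03G038440 spans chr3:308708086-308708843 on the plus strand with 612 bases. The other partner gene, Ebr03G038640, spans chr3:311020060-311020816 on the minus strand with 555 bases. These 2 NRT3.1 genes are separated by 2311216 bases with 27 genes between them, 19 of which have identifiers of the published genome's gene set. Ebr03G055670 carries the major facilitator domain of NRT2 carriers in the annotation, and both NRT3.1 genes carry the NRT3 accessory domain. Neither of these domains is listed for Ebr05G019930. Their sequences were not compared here, and the sources used here do not say how a read that aligned to several genes was counted, so values of genes with the same match are uncertain to that extent.

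Within the family, 14 genes matched NRT2 and 7 matched NRT3. Of the NRT2 genes, 7 matched NRT2.5, 5 matched NRT2.4, 1 matched NRT2.7 and 1 matched NRT2.1, and 2 of the NRT2.4 genes (Ebr01G017700 and Ebr01G017730) had no count. NRT2.7 was the most abundant NRT2 gene, with a mean FPKM of 21.5 over the 27 libraries (4.99 to 163). Together, Ebr05G019930 and Ebr03G055670 made up 34.7% to 94.4% of the summed FPKM of the NRT2 genes in a library (median 65.2%).

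The partner family had another order. The most abundant NRT3 gene was Ebr03G053620, which is not among the 4 genes, with an FPKM of 37.5 to 137 (mean 70.7) in every library. Ebr03G053690 followed with a mean of 14.1. Ebr03G038440 and Ebr03G038640 had means of only 2.22 and 2.43, and together they made up 0% to 25.8% of the summed NRT3 FPKM (median 1.06%). The remaining NRT3 genes, Ebr05G065970, Ebr03G053220 and Ebr03G071530, had means of 0.208, 0.0746 and 0.0738.

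The other NRT2 genes with reads had lower means than NRT2.7. Ebr05G019930, the gene called NRT2.5 below, had a mean of 3.49. That is below 2 other NRT2.5 matches, Ebr01G025760 and Ebr03G055690. Ebr03G055470 reached 23 in MN S3 replicate A. Ebr01G025760 (mean 4.19), Ebr03G055690 (3.72), Ebr03G055470 (2.21), Ebr03G055560 (0.445) and Ebr03G055680 (0.00852) all matched NRT2.5, as did a locus that the authors assembled outside the annotation (0.232). The NRT2.1 gene, also an assembled locus, had a mean FPKM of 0.264. The 3 NRT2.4 genes with reads, Ebr01G059010, Ebr01G059000 and Ebr01G058990, had means of 0.123, 0.0532 and 0.0327. Single libraries held many of the peaks: of the 19 genes with reads, 5 were highest in MN S3 replicate C, 4 in HN S3 replicate C, 3 in HN S3 replicate A and 2 in MN S3 replicate A.

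**Figure D1:**
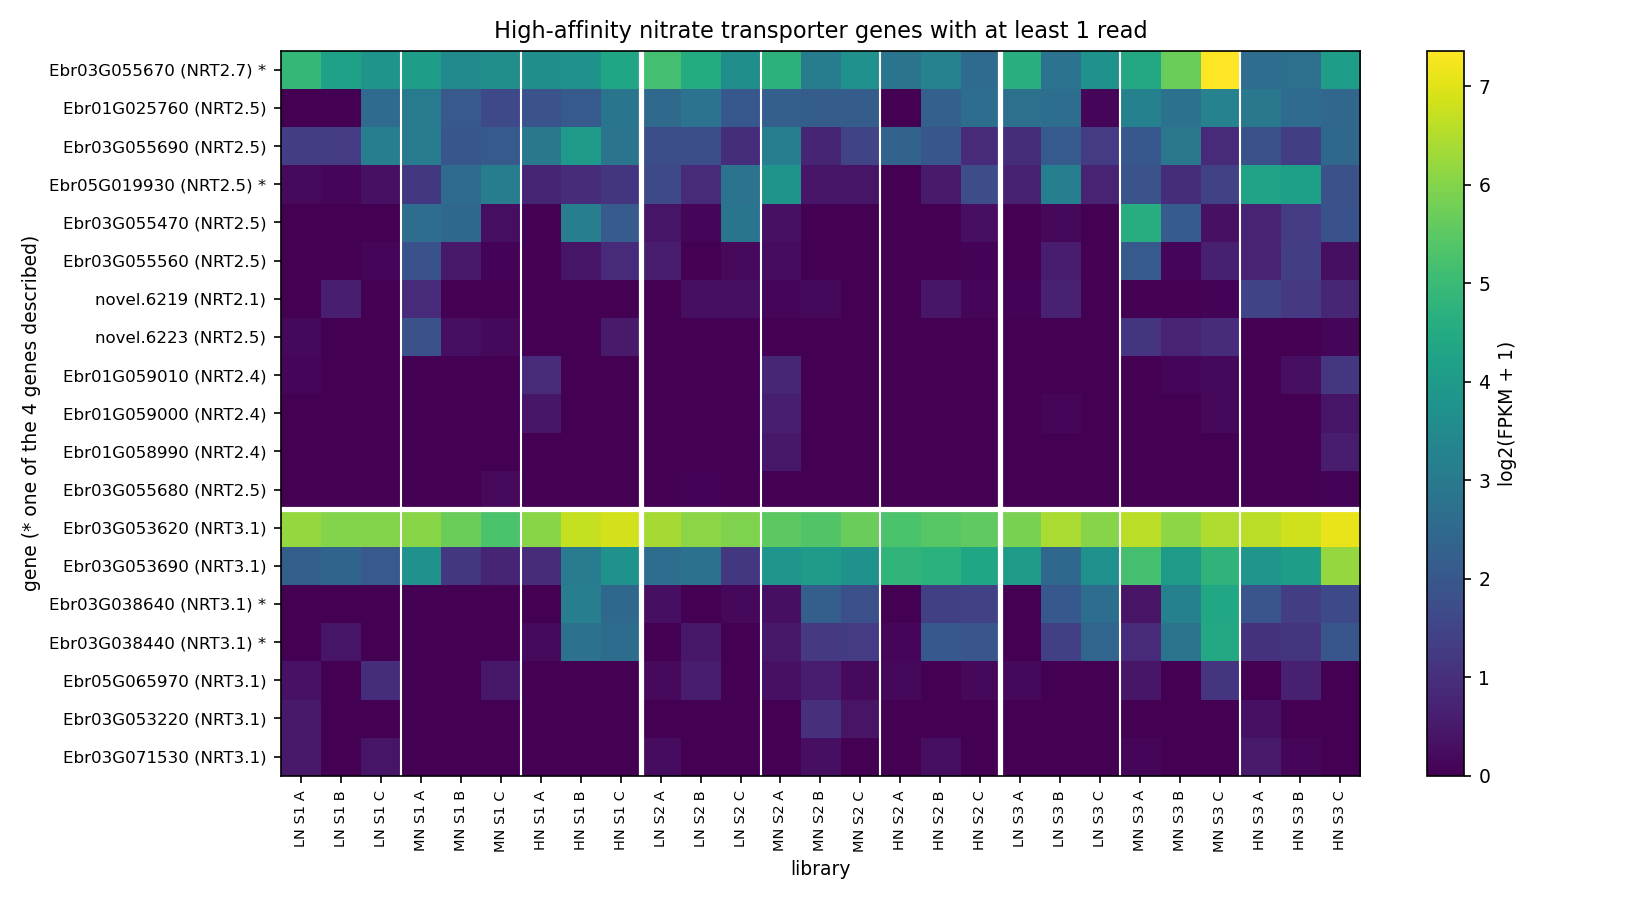
Heat map of log2(FPKM + 1) for the 19 high-affinity nitrate transporter genes with at least 1 read (rows, NRT2 above and NRT3 below the horizontal line, asterisks on the 4 genes described) in the 27 libraries (columns). Ebr03G053620 was bright in every library, whereas Ebr03G038440 and Ebr03G038640 were dark in all LN S1 and MN S1 libraries and brightest in MN S3 replicate C.

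NRT2.5, the carrier of starved plants in Arabidopsis, was present at low level in leaves and swung widely between libraries. At S1 its FPKM was 0.127, 0.0657 and 0.261 in LN replicates A, B and C (2, 1 and 5 reads), 1.27, 5.01 and 7.55 in MN (17, 81 and 128 reads), and 0.69, 0.922 and 1.2 in HN (9, 14 and 19 reads). The 3 groups did not overlap, with LN lowest and MN highest. At S2 the values were 2.08, 0.864 and 6.02 in LN, 12.9, 0.358 and 0.325 in MN, and 0, 0.434 and 2.37 in HN. Here MN replicate A stood far above replicates B and C, and all 3 groups overlapped. At S3 the FPKM was 0.606, 7.98 and 0.658 in LN, 2.7, 0.945 and 1.71 in MN, and 18, 16.7 and 2.56 in HN. Both highest values of the whole series were HN S3 replicates A and B, which are 1 of the close pairs, and replicate C lay within the MN range.

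In the order of group means, NRT2.5 was highest in HN S3 (12.4 ± 8.56, SD, n = 3), then MN S1 (4.61 ± 3.16), MN S2 (4.54 ± 7.27), LN S3 (3.08 ± 4.24), LN S2 (2.99 ± 2.69), MN S3 (1.78 ± 0.882), HN S1 (0.938 ± 0.257), HN S2 (0.935 ± 1.26) and LN S1 (0.151 ± 0.0997). Every group overlapped the next in this order. Of all 36 pairs of groups, 10 had ranges that did not overlap. The like number over all genes was not computed. This count and those of the other genes below are therefore descriptions and do not show an unusual separation.

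**Figure D2:**
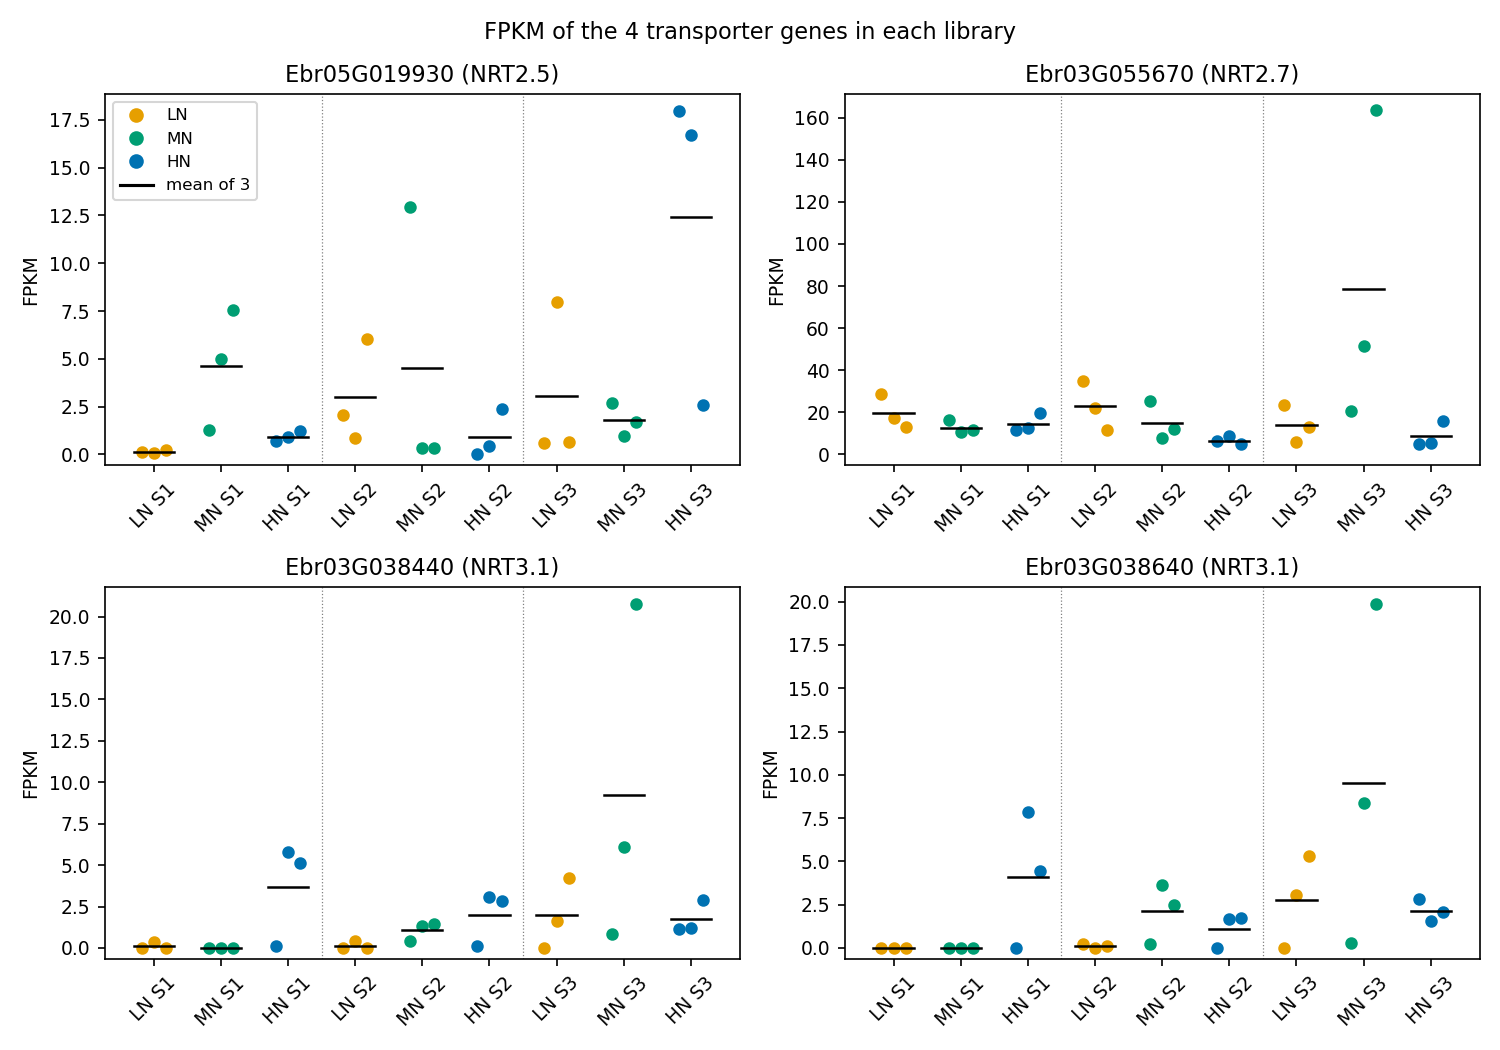
FPKM of the 4 genes in each library (points; 3 replicates A to C from left to right in each group, horizontal lines at the group means), by nitrate level and stage. NRT2.5 peaked in HN S3 replicates A and B, NRT2.7 in MN S3 replicate C at 163, and both NRT3.1 genes in that same library at 20.7 and 19.9.

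NRT2.5 in nitrate-free leaves at the first stage was 30.5-fold below MN by mean FPKM, or 47.8-fold without LN S1 replicate C. The edgeR quasi-likelihood test on counts gave a log2 fold change of -4.84 ± 0.91 (SE) for LN vs MN at S1 with an unadjusted p of 0.00119, and the adjusted p of 0.181 did not pass the threshold of 0.05. A gene counted as called at that threshold when its log2 fold change was also 1 or more in either direction, which held for 2 of the 21777 genes tested (0.00918%), and 8.64% of genes had an unadjusted p below 0.05. DESeq2, which called 758 genes (3.03%), also called NRT2.5, at -4.91 ± 0.996 (adjusted p = 0.000139). Over all alternatives the adjusted p ranged from 0.000139 to 0.643, and with the close pair MN S1 B and C summed to 1 library the value was -4.58 (adjusted p = 0.525, edgeR). All 3 LN libraries lay below all 3 MN libraries. With 2, 1 and 5 reads in LN and 17, 81 and 128 in MN, NRT2.5 passed the low-count filter only through MN. The filter thus set the direction of the edgeR test, and its values are descriptions. Other NRT2.5 matches had the same sign with an SE larger than the change. Ebr01G025760 had -1.31 ± 1.73 (adjusted p = 0.910, edgeR) and Ebr03G055690 -0.32 ± 0.77 (adjusted p = 0.963, edgeR). Ebr03G055470, which the filter removed, had 0 reads in each LN S1 library and 77, 81 and 4 in MN S1. The MN libraries are shared with the comparison that selected the gene, so this contrast is not independent of the choice.

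At the later stages LN and MN did not separate for NRT2.5. At S2, where edgeR called 0 of 21923 genes (0%; 13.3% at an unadjusted p below 0.05), the fitted value was -0.60 ± 1.51 (adjusted p = 0.893), and without MN S2 replicate A it was 3.15 (adjusted p = 0.180). At S3, with 0 of 22048 genes called (0%; 4.69% at an unadjusted p below 0.05), it was 0.80 ± 1.12 (adjusted p = 0.978), and without LN S3 replicate B it was -1.50. Both signs therefore rested on a single library. In 1 fit over the 18 LN and MN libraries with stage as covariate, in which edgeR called 0 of 26690 genes (0%; 9.51% at an unadjusted p below 0.05), the LN effect was -1.22 ± 1.06 (adjusted p = 0.776).

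Whether the LN effect on NRT2.5 differed between stages was tested as an interaction on 12 libraries. The log2 difference was 4.24 ± 1.95 for S2 against S1 (unadjusted p = 0.0526, adjusted p = 0.433) and 5.64 ± 1.57 for S3 against S1 (unadjusted p = 0.00432, adjusted p = 0.469) by edgeR. Neither passed the correction over all genes.

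Time within LN uses none of the libraries that selected the genes. Every later LN library lay above the S1 range of NRT2.5: the lowest LN S2 and LN S3 values, 0.864 and 0.606, exceeded the highest LN S1 value of 0.261. By mean FPKM, LN S2 was 19.7-fold above LN S1, 9.72-fold without LN S2 replicate C and 31-fold without LN S1 replicate C. LN S3 was 20.4-fold above LN S1, but 4.18-fold without LN S3 replicate B and 31.9-fold without LN S1 replicate C. For S2 vs S1 within LN, edgeR gave 4.22 ± 0.97 (unadjusted p = 0.00416, adjusted p = 0.367), called 0 of 22151 genes (0%) and put 9.7% of genes at an unadjusted p below 0.05. DESeq2 called the gene at 4.28 ± 1.07 (adjusted p = 0.0071), among 497 genes (2.07%). With the close pair LN S2 A and B summed the value was 4.56 (adjusted p = 0.796, edgeR). NRT2.5 had 2, 1 and 5 reads in LN S1 and 34, 15 and 103 in LN S2, so it passed the filter only through LN S2. The filter thus set the direction of this edgeR test, and its values are descriptions.

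For S3 vs S1 within LN the low-count filter removed NRT2.5. Fitted without the filter it had 4.27 ± 1.34 (unadjusted p = 0.0127, adjusted p = 0.602, edgeR), and DESeq2 called it at 4.33 ± 1.33 (adjusted p = 0.0487) among 618 genes (2.31%). In this comparison edgeR called 0 of 21923 genes (0%; 7.31% at an unadjusted p below 0.05). Between S3 and S2 the difference was 0.04 ± 1.21 (adjusted p = 0.996), with 0 of 22182 genes called (0%; 8.19% at an unadjusted p below 0.05), and it was -2.23 without LN S3 replicate B.

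Within MN, which shares its libraries with the selecting comparison, the NRT2.5 group means were 4.61, 4.54 and 1.78 at S1, S2 and S3. The log2 fold changes were -0.03 ± 1.42 for S2 vs S1 (adjusted p = 0.992), -1.32 ± 1.43 for S3 vs S2 (adjusted p = 0.616) and -1.36 ± 0.75 for S3 vs S1 (adjusted p = 0.715), all by edgeR. Without MN S2 replicate A the first became -3.74 and the second 2.38.

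NRT2.7, the vacuolar carrier of Arabidopsis seeds, was expressed in all 27 leaf libraries. At S1 its FPKM was 28.8, 17.5 and 13.1 in LN, 16.3, 10.5 and 11.5 in MN, and 11.6, 12.8 and 19.5 in HN, and the groups overlapped. At S2 it was 34.8, 22 and 11.6 in LN, 25.5, 7.74 and 12.3 in MN, and 6.18, 8.68 and 4.99 in HN, so that every HN library was below every LN library. At S3 it was 23.4, 5.94 and 12.9 in LN, 20.7, 51.7 and 163 in MN, and 5.17, 5.53 and 16 in HN. The 3 MN S3 libraries spanned 486, 1061 and 3718 reads, and the lowest of them was below the highest LN library.

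The group means of NRT2.7 ran from 78.6 ± 75.1 in MN S3 (SD, n = 3) through LN S2 (22.8 ± 11.6), LN S1 (19.8 ± 8.08), MN S2 (15.2 ± 9.23), HN S1 (14.6 ± 4.25), LN S3 (14.1 ± 8.80), MN S1 (12.8 ± 3.096) and HN S3 (8.91 ± 6.16) to HN S2 (6.62 ± 1.88). Here too each group overlapped its neighbour, and 8 of 36 group pairs did not overlap.

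In medium nitrate NRT2.7 was 6.16-fold higher at 48 than at 24 DAT by mean FPKM, with no overlap between MN S3 and MN S1, and 2.83-fold higher without MN S3 replicate C. The MN libraries belong to the comparison that selected the 4 genes, so no contrast with MN or within MN is independent of the choice. The edgeR log2 fold change was 2.62 ± 0.72 (unadjusted p = 0.00833, adjusted p = 0.381), in a comparison with 0 of 21954 genes called (0%; 8.24% at an unadjusted p below 0.05). DESeq2 called it at 2.63 ± 0.67 (adjusted p = 0.00745), among 749 genes (2.87%). Against S2 the MN S3 value was 2.39 ± 0.84 (unadjusted p = 0.0277, adjusted p = 0.231) by edgeR, which called 2 of 21885 genes (0.00914%) and put 18.9% at an unadjusted p below 0.05. DESeq2 gave 2.38 ± 0.80 (adjusted p = 0.0457), among 1714 genes (6.49%). Without MN S3 replicate C the edgeR values were 1.51 and 1.26. From S1 to S2 in MN the difference was 0.24 ± 0.46 (adjusted p = 0.803), in a comparison with 275 of 21655 genes called (1.27%; 20.8% at an unadjusted p below 0.05).

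Without nitrate the S3 level of NRT2.7 was 5.59-fold below MN by mean FPKM, with overlapping ranges, and 2.57-fold below without MN S3 replicate C. For LN vs MN at S3 edgeR gave -2.47 ± 0.84 (unadjusted p = 0.023, adjusted p = 0.968), or -1.37 without MN S3 replicate C. At S1 and S2 the LN vs MN values were 0.63 ± 0.35 (adjusted p = 0.699) and 0.58 ± 0.56 (adjusted p = 0.704), and over the 3 stages the value was -0.33 ± 0.56 (adjusted p = 0.908). The interaction of S3 against S1 was -3.101 ± 0.97 (unadjusted p = 0.00846, adjusted p = 0.540), and that of S3 against S2 was -3.06 ± 1.10 (unadjusted p = 0.0187, adjusted p = 0.450), both by edgeR. Within LN, NRT2.7 values for S2 vs S1, S3 vs S2 and S3 vs S1 were 0.20 ± 0.46, -0.69 ± 0.59 and -0.49 ± 0.54, with adjusted p of 0.901, 0.797 and 0.920 by edgeR.

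The NRT3.1 genes Ebr03G038440 and Ebr03G038640, whose Arabidopsis counterpart holds NRT2 carriers at the plasma membrane, were near 0 in many libraries and clearly present in others. Ebr03G038440 had 0, 3 and 0 reads in LN S1, 0, 0 and 0 in MN S1, and 1, 51 and 47 in HN S1 (replicates A, B and C). At S2 it had 0, 4 and 0 reads in LN, 4, 11 and 13 in MN, and 1, 29 and 33 in HN. At S3 it had 0, 16 and 45 reads in LN, 9, 56 and 212 in MN, and 12, 11 and 31 in HN. Thus the gene was at or under 4 reads in all LN libraries of the first 2 stages and in all MN S1 libraries.

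Ebr03G038640 showed the same layout at a distance of 2311216 bases. It had 0 reads in all LN S1 and MN S1 libraries and 0, 63 and 37 reads in HN S1. At S2 it had 2, 0 and 1 reads in LN, 2, 27 and 20 in MN, and 0, 14 and 18 in HN. At S3 it had 0, 27 and 51 reads in LN, 3, 70 and 184 in MN, and 27, 13 and 20 in HN. In 5 of the 9 groups replicate A held the fewest reads for each of the 2 genes (HN S1, MN S2, HN S2, LN S3 and MN S3). LN S1, MN S1 and LN S2 had too few reads to show an order, and in HN S3 replicate A was not the lowest. Over all genes the replicate letters did not pair libraries across groups. Whether the letter mattered for these 2 genes was not tested.

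By mean FPKM both genes were highest in MN S3, at 9.22 ± 10.3 for Ebr03G038440 and 9.51 ± 9.82 for Ebr03G038640 (SD, n = 3), followed by HN S1 at 3.68 ± 3.09 and 4.10 ± 3.95. HN S2, LN S3, HN S3 and MN S2 lay between 1.07 and 2.79 for both genes, and LN S2 and LN S1 were at 0.132 and 0.113 for the first and 0.114 and 0 for the second. MN S1 was at 0 for both. The only neighbours in this order that did not overlap were MN S2 and LN S2 for Ebr03G038440, whose nearest libraries had 4 reads each, and 11 and 8 of the 36 group pairs were apart for the 2 genes.

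In 13 of the 27 libraries both genes had at least 9 reads and in 13 both had at most 4, with 6 of these at 0 for both. One library, MN S3 replicate A, had 9 reads of the first and 3 of the second. The limit of 9 reads was chosen after the values were seen. Pearson's r of log2(FPKM + 1) between the genes was 0.95 and Spearman's rho was 0.89 over the 27 libraries, which share depth and treatment groups and are given as a description. Whether some reads were counted for both genes is not known here, and their part in these values was not tested. Ebr03G053620, the abundant NRT3.1 gene, had r of 0.37 with each of them. NRT2.5 had r of -0.06 and 0.01 with the NRT3.1 pair and NRT2.7 had 0.33 and 0.25, and r between the NRT2 genes was -0.24.

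**Figure D3:**
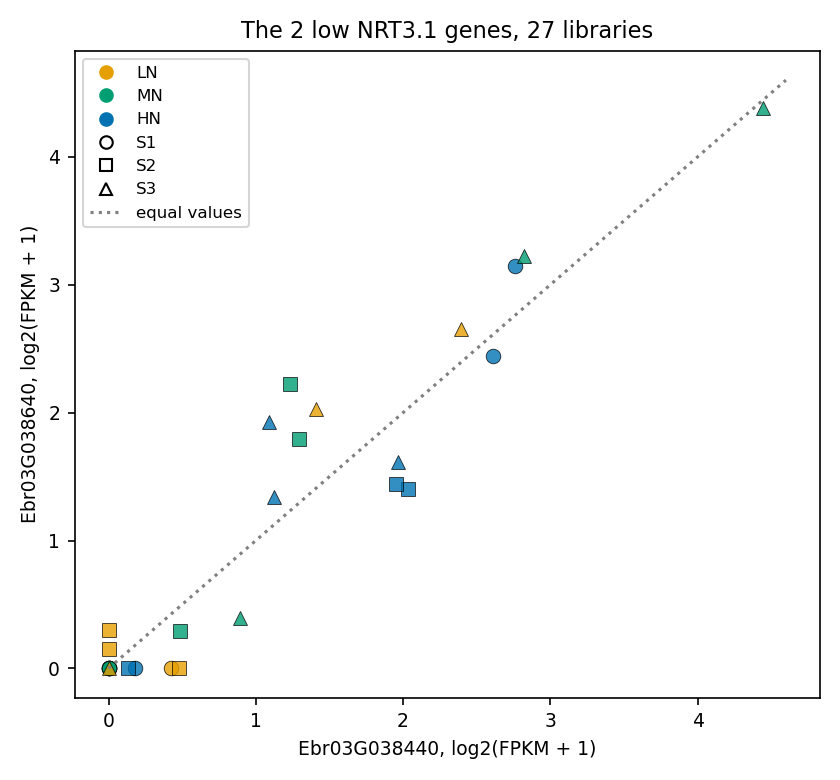
Scatter plot of log2(FPKM + 1) of Ebr03G038440 (x axis) against Ebr03G038640 (y axis) in the 27 libraries, coloured by nitrate level and shaped by stage; the dotted line marks equal values. The points ran along the line from a group near 0, which holds every LN S1 and MN S1 library, to MN S3 replicate C at the upper right.

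In MN the NRT3.1 genes had 0 reads at S1, while Ebr03G038440 had 4 to 13 and Ebr03G038640 2 to 27 reads per library at S2, and both reached their highest group means at S3. Against the limit of 3 reads per library that a count of 0 allows, MN S3 was at least 27.4-fold higher than MN S1 for Ebr03G038440 and at least 25.6-fold for Ebr03G038640, by mean FPKM. Without MN S3 replicate C these bounds were 10.3-fold and 11.7-fold, and MN S3 replicate A had 3 reads of Ebr03G038640, no more than that limit. As for NRT2.7, these MN libraries took part in the selection. The filter had removed both genes from this comparison. Fitted without it, edgeR gave an unadjusted p of 0.00078 and 0.00157 and an adjusted p of 0.198 and 0.244, while DESeq2 called both (adjusted p = 4.96e-05 and 0.000215). Fitted fold changes against groups at 0 depend on the prior count and bound no size. MN S2 was at least 3.18-fold and 5.70-fold higher than MN S1 (the latter 3.62-fold without MN S2 replicate B), with adjusted p of 0.176 and 0.160 by edgeR without the filter, and DESeq2 called Ebr03G038640 (adjusted p = 0.0209), among 2860 genes (10.4%), but not Ebr03G038440 (adjusted p = 0.0629). For S3 vs S2 within MN edgeR gave 3.12 ± 1.17 (unadjusted p = 0.036, adjusted p = 0.243) and 2.19 ± 1.43 (adjusted p = 0.421), or 1.70 and 1.05 without MN S3 replicate C.

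Without nitrate both NRT3.1 genes stayed near 0 through S2. Only LN S3 replicates B and C had 16 or more reads among the 9 LN libraries, and replicate A had 0 for both. LN S3 was at least 8.11-fold above LN S1 for Ebr03G038640, or 4.46-fold without LN S3 replicate C, and for Ebr03G038440 the mean FPKM was 1.96 against 0.113. Fitted without the filter these had adjusted p of 0.647 and 0.696 by edgeR. LN vs MN at S3 was -2.21 ± 1.58 (adjusted p = 0.968) for Ebr03G038440 and -1.75 ± 1.67 (adjusted p = 0.972) for Ebr03G038640, and over S1 to S3 it was -1.61 ± 1.15 (adjusted p = 0.712) and -2.56 ± 1.17 (unadjusted p = 0.0501, adjusted p = 0.525), by edgeR. At S2 the filter removed both. Ebr03G038440 had 4 reads in the LN S2 libraries together and 28 in MN S2, a depth-scaled ratio of 6.81 (95% exact interval 2.38 to 26.7, counting error only), and the highest LN and lowest MN library had 4 reads each. Ebr03G038640 had 3 reads against 49, a ratio of 15.9 (5.13 to 79.7), and its ranges overlapped. Fitted without the filter, the adjusted p was 0.524 and 0.422 by edgeR.

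**Figure D4:**
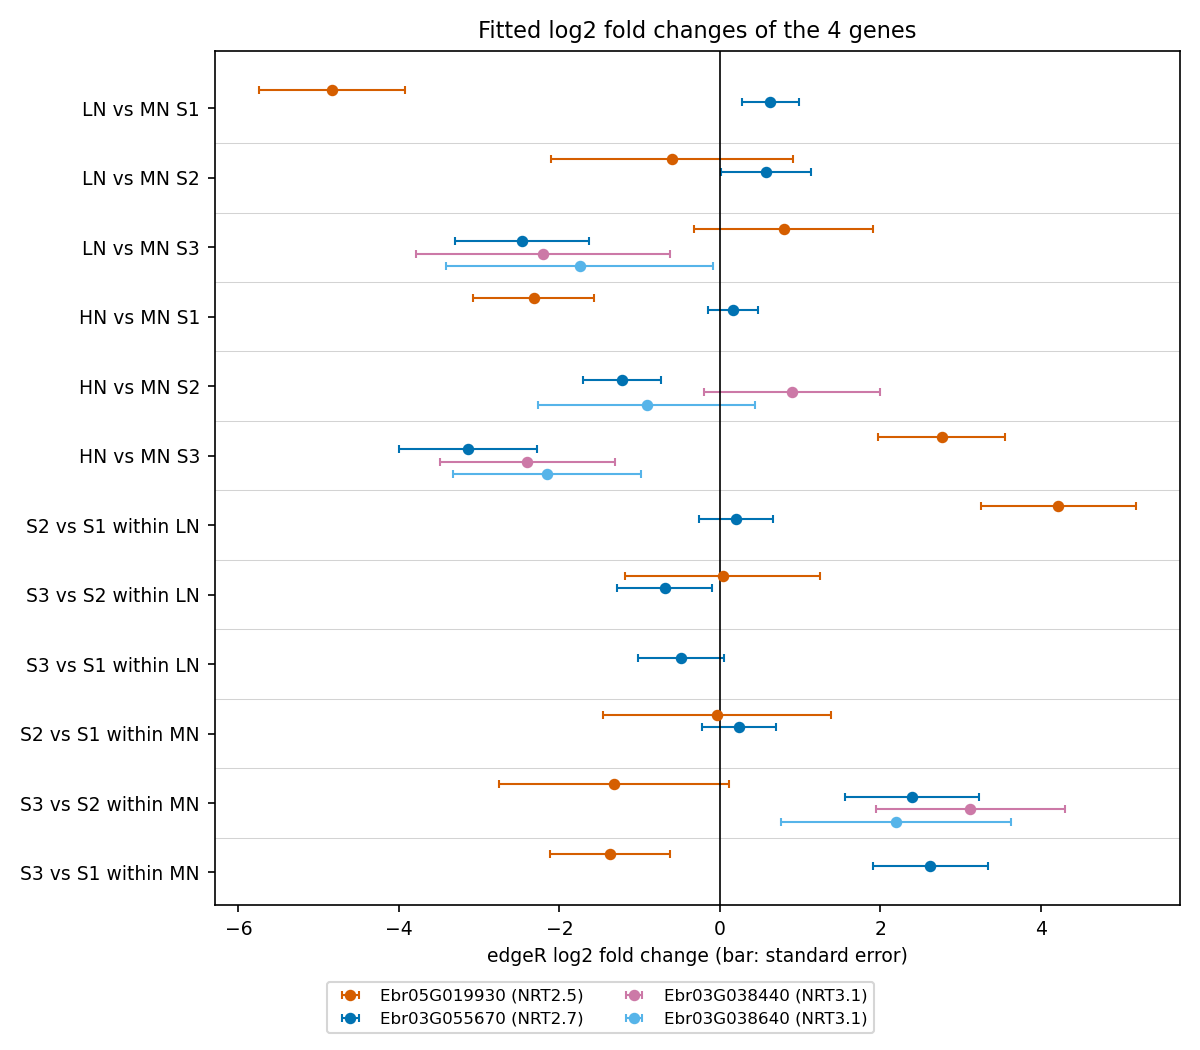
Fitted edgeR log2 fold changes (points) with standard errors (bars) of the 4 genes in 12 comparisons; genes that the low-count filter removed have no point. NRT2.5 lay farthest from 0 for LN vs MN at S1 (-4.84) and S2 vs S1 within LN (4.22). In both it passed the filter only through the group with more reads, so the filter set the direction. The HN vs MN rows are descriptions because that comparison selected the genes.

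Counted over the 10 comparisons of LN with MN and of stages, 25 of 40 gene tests passed the filter. None of the 25 was called by edgeR, the lowest adjusted p being 0.181, and 6 had an unadjusted p below 0.05, beside 4.69% to 20.8% of all genes in these comparisons. DESeq2 called 8 of the 36 gene tests for which it gave an adjusted p, 4 of them among the 25, beside 2.07% to 10.4% of all genes in the comparisons with such a call. In those without one it called 1095 of 27110 genes (LN vs MN S2), 213 of 25626 (LN vs MN S3), 260 of 29126 (LN vs MN over S1 to S3) and 583 of 26423 (S3 vs S2 within LN). Of these 8, only the 2 calls of NRT2.5 within LN used no library of the selecting comparison. For S2 vs S1 within LN, as for LN vs MN at S1, the filter had set the direction of the edgeR test of NRT2.5. The median log2 fold change of all genes stayed between -0.03 and 0.03 in the edgeR comparisons.

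The comparison of HN with MN selected the 4 genes, so its values are a description without a test. At S1, where edgeR called 24 of 21604 genes (0.111%), NRT2.5 was 4.91-fold lower in HN by mean FPKM, without overlap, with a fitted log2 fold change of -2.32 ± 0.75. NRT2.7 was at 0.16 ± 0.32. The NRT3.1 genes went the other way, at least 10.9-fold and 11.1-fold above MN S1 (the latter 5.99-fold without HN S1 replicate B), carried by HN S1 replicates B and C. HN S1 replicate A had 1 and 0 reads.

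At S2, with 4 of 22271 genes called (0.018%), NRT2.7 was 2.30-fold lower in HN with overlap, at -1.22 ± 0.49, or -0.63 without MN S2 replicate A. Ebr03G038440 was at 0.90 ± 1.10 and Ebr03G038640 at -0.91 ± 1.35. NRT2.5 was removed by the filter and had 0, 7 and 47 reads in HN.

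At S3 the 4 genes lay on both sides of MN, with 0 of 22601 genes called (0%; 4583 genes at an unadjusted p below 0.05). NRT2.5 was 6.96-fold higher in HN by mean FPKM with overlap and a fitted value of 2.76 ± 0.79, and it was 2.49 with the close pair HN S3 A and B summed to 1 library. NRT2.7 was 8.83-fold lower in HN, without overlap (4.06-fold without MN S3 replicate C and 14.7-fold without HN S3 replicate C), at -3.14 ± 0.86. Ebr03G038440 and Ebr03G038640 were at -2.40 ± 1.09 and -2.16 ± 1.17. Without MN S3 replicate C the last 3 values were -2.04, -1.01 and -1.04.

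Of the vascular markers, 4 passed the filter for HN vs MN at this stage and 0 were called (lowest adjusted p = 0.104, edgeR). The markers were low in MN S3, so they passed the filter mainly through HN. Their direction was therefore largely set by the filter and is not a result. The summed FPKM of 5 vascular markers, led by sieve element occlusion genes, was 29.8 to 63.7 in HN S3 and 0.786 to 3.12 in MN S3, and 1.08 to 33.5 in LN S3. At S1 it was 0 to 8.65 in HN and 0 to 0.602 in MN, and at S2 13.8 to 79.4 in HN and 1.24 to 78.5 in MN. The 8 senescence markers, 4 of them without a count, summed to 6.89 to 8.51 in HN S3 and 2.45 to 7.26 in MN S3. Their part in the values of the 4 genes was not tested.

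Time within HN was not tested. NRT2.5 in HN S3 was 13.3-fold above HN S2 and 13.2-fold above HN S1 by mean FPKM, with no overlap in either case. Without HN S2 replicate C the first was 57.2-fold, and HN S2 replicate A had 0 reads. NRT2.7 in HN S2 was 2.21-fold below HN S1, also without overlap. HN and LN shared no library, and at S1 NRT2.5 was 6.21-fold higher in HN than in LN without overlap (9.73-fold without LN S1 replicate C), while at S2 NRT2.7 was 3.45-fold lower in HN without overlap.

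The genes most like each of the 4 were taken as those with the highest Pearson's r of normalized log2 CPM (a depth-scaled count) over the 27 libraries, among 28593 genes, as a description of libraries that share depth and treatment. NRT2.5 was most like Ebr02G032670 (r = 0.82), a match of multiprotein-bridging factor 1c, a transcription coactivator known from the Arabidopsis heat response. Ebr05G020460 (0.71), a match of the Myb factor EFM, and Ebr04G013660 (0.70), without a match, followed. NRT2.7 was most like Ebr03G047450 (0.84), a match of plastid alpha-glucan phosphorylase, which releases sugar phosphate from starch. Next came an assembled locus without a match (0.82) and Ebr03G005370 (0.81, a MICRORCHIDIA 7 match). Some of these ranks depended on the measure. By Spearman's rho Ebr03G047450 was at rank 38.5 for NRT2.7, and by log2(FPKM + 1) Ebr05G020460 was at rank 45 for NRT2.5. Ebr02G032670 stayed at rank 1 for NRT2.5 by both.

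For Ebr03G038440 the gene most like it was Ebr03G038640 (0.94), ahead of Ebr05G061880 (0.78, an MLO-like protein match) and an assembled locus without a match (0.78). For Ebr03G038640, Ebr03G038440 was first, followed by Ebr02G046240 (0.81, an RCC2 homologue match) and Ebr04G008930 (0.79). The twins ranked first for each other also with log2(FPKM + 1) and with Spearman's rho.

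Of the other 17 high-affinity transporter genes, 4 to 7 passed the filter in each comparison with MN. None was called by edgeR, and 0, 2 and 0 had an unadjusted p below 0.05 for LN vs MN and 1, 1 and 1 for HN vs MN at S1, S2 and S3. Over all genes tested, 8.64%, 13.3% and 4.69% had such a p for LN vs MN and 9.31%, 18.4% and 20.3% for HN vs MN, and the counts of the other lists given next stand beside the same shares. The median log2 fold change of the family's other genes was -0.34, -0.25 and -1.04 under LN and 0.54, -0.17 and -0.29 under HN, beside medians of all genes within 0.03 of 0. Ebr03G053620, the main NRT3.1 gene, had 0.64 ± 0.18 for LN vs MN at S2 (unadjusted p = 0.0119, adjusted p = 0.254). Ebr03G053690 had -1.76 ± 0.56 there (unadjusted p = 0.0189, adjusted p = 0.290). The assembled NRT2.1 locus had 83 reads in HN S3 and 1 in MN S3, a depth-scaled ratio of 81.8 (95% exact interval 14.3 to 3268, counting error only), with an unadjusted p of 0.00118 and an adjusted p of 0.107, all tests by edgeR. This locus passed the filter only through HN S3, so the filter fixed its direction. Its ratio and p are descriptions.

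The enzymes that reduce nitrate were low in MN at the first stage. Nitrate reductase Ebr02G062930 had a mean FPKM of 84.6 ± 30.5 in LN S1, 14.4 ± 3.57 in MN S1 and 53.3 ± 20.9 in HN S1 (SD, n = 3). The fitted log2 values were 2.56 ± 0.35 for LN vs MN (adjusted p = 0.0972) and 1.86 ± 0.35 for HN vs MN (adjusted p = 0.128) by edgeR. Ferredoxin-nitrite reductase Ebr04G050620, the next step in the chloroplast, had 29.8 ± 5.05, 7.44 ± 4.03 and 35.2 ± 15.9 FPKM, with 2.00 ± 0.40 (adjusted p = 0.187) and 2.21 ± 0.52 (adjusted p = 0.204). None of the 3 reductase genes was called in any of the 6 comparisons with MN, and 2, 0 and 1 had an unadjusted p below 0.05 under LN and 2, 1 and 1 under HN.

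Among the 138 genes of the low-affinity NPF family, 57 to 67 passed the filter and none was called by edgeR in these 6 comparisons, with 4 to 15 at an unadjusted p below 0.05. The most abundant, Ebr03G069220 (NPF4.6 match), had a mean FPKM of 92.7, and Ebr03G061500 (NPF2.13 match) had 85.1. Ebr03G061500 had -2.31 ± 0.42 for HN vs MN at S1 (adjusted p = 0.118) and -2.34 ± 0.58 for LN vs MN at S3 (adjusted p = 0.848), both by edgeR.

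The remaining nitrogen lists also held no gene called by edgeR. Of 29 anion channel and exchanger genes 6 passed the filter, with 0 to 4 at an unadjusted p below 0.05, and the most abundant were Ebr05G045950 (CLC-c, mean FPKM 65.1) and Ebr03G000210 (CLC-f, 14.1). Of 16 ammonium transporter genes 6 or 7 passed, with 0 to 2 at an unadjusted p below 0.05. Their most abundant members were Ebr04G028570 (AMT1 member 1, 36.6) and Ebr02G060400 (AMT1 member 2, 34.2), and the latter had -1.50 ± 0.24 for HN vs MN at S2 (adjusted p = 0.0715, edgeR). Of 19 glutamine and glutamate synthase genes 6 to 8 passed, with 0 to 3 below 0.05, led by Ebr01G000170 (cytosolic glutamine synthetase, 1058) and Ebr02G017870 (the chloroplast form, 441). Of 19 nitrate signalling regulators 17 to 19 passed, with 0 to 4 below 0.05, led by Ebr02G051640 (BTB/POZ and TAZ domain protein 1, 131) and Ebr04G069210 (LBD39, 27.3).

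Leaf mesophyll markers held the 1 called gene of these lists, the antenna protein gene Ebr04G044120, at -3.45 ± 0.24 for HN vs MN at S2 (adjusted p = 0.0494, edgeR). At S2 their median was -1.73 under HN and -1.38 under LN, with 44 of 46 and 43 of 47 tested markers below 0. The part of this shift in the S2 values of the 4 genes was not tested.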

How the data were processed

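Leaf RNA of 27 libraries was sequenced on an Illumina NovaSeq. Per the labels and the study's methods, the authors aligned reads with HISAT2 2.0.5, assembled unannotated transcripts with StringTie 1.3.3b and counted reads per gene with featureCounts 1.5.0-p3. Reads were aligned to a published genome of the species, and the sources used here name no strand setting, annotation version or build. The deposited counts are raw reads per gene. The FPKM values deposited by the authors are these counts over gene length (in bases, a deposited column), times a constant factor of each library. This proportion was checked within each library on genes with at least 100 reads. The factor did not match the counted total of each library, and its origin is not known here. Depth, 13609959 to 18482851 counts, limits low genes: 0 reads allow up to 3 reads of the library (counting error only).

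Groups followed the sample labels. Counts were tested with edgeR 4.0.16 (R 4.3.3; TMM scaling, default filterByExpr, two-sided quasi-likelihood test, Benjamini-Hochberg over all genes tested). A call needed an adjusted p below 0.05 and a log2 change of 1 or more in either direction. The SE was the size of that change divided by the root of the F statistic. Genes that the filter removed were fitted without it. Alternatives were DESeq2 1.42.0, RLE scaling, no filter, all 27 libraries in 1 fit, the replicate letter as a block, limma 3.58.1 on log2(FPKM + 1), leaving out each library and, chosen after seeing the data, summing close pairs, the stage interactions and folds of mean FPKM without each library. Tests were tried on simulated data with 200 genes changed 8-fold.

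The members, gene lists and tests were chosen with earlier results of these data known. Lists came from Swiss-Prot names in the annotation, and 1 pattern was corrected after its matches were seen, since it had taken in chaperonin genes. Named genes were the 4 genes, the rest of the high-affinity family, the 3 genes most correlated with each (log2 CPM, prior count 2), the 2 most abundant of each list and any list gene called. Among root endodermis markers these were Ebr06G013650 (mean FPKM 0.136) and Ebr03G044940 (0), among vascular markers Ebr03G052230 (9.50) and Ebr02G051370 (7.51), among senescence markers Ebr05G052650 (4.88) and Ebr05G052620 (0.0329), and among mesophyll markers Ebr06G030310 (7607) and Ebr06G046340 (5746).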

Additional observations from a re-analysis of the deposited data

How the results depend on the processing

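The edgeR count of 0 calls among the 25 gene tests held with RLE scaling, no filter, all 27 libraries in 1 fit, the replicate block, limma, summed close pairs and each library left out. DESeq2 called 8 gene tests: NRT2.5 at -4.91 (LN vs MN S1), 4.28 (S2 vs S1 within LN) and 4.33 (S3 vs S1 within LN), NRT2.7 at 2.38 (S3 vs S2 within MN) and 2.63 (S3 vs S1 within MN), Ebr03G038440 at 8.82 and Ebr03G038640 at 8.72 (S3 vs S1 within MN) and Ebr03G038640 at 6.55 (S2 vs S1 within MN), the last 3 against groups at 0 and so no measure of size. The cause of the difference between the tools was not tested. Over all alternatives to these tests 357 values kept direction and call, and 22 reversed, all of them uncalled. With the replicate block, NRT2.5 reversed to 0.94 (LN vs MN S2), -0.37 (LN vs MN S3), -0.92 (S3 vs S2 within LN) and 0.53 (S3 vs S2 within MN); the letters did not pair libraries (mean correlation of deviations 0.0238 for the same letter, -0.0117 for different letters), and the block left 0 genes called in every comparison. Limma reversed NRT2.5 to 0.23 (LN vs MN S2) and -0.25 (S3 vs S2 within LN), and summing close pairs to -0.29 (S3 vs S2 within LN) and 0.77 (S2 vs S1 within MN).

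Leaving out 1 library, NRT2.5 ranged from -1.65 to 3.15 (LN vs MN S2), -1.50 to 1.27 (LN vs MN S3), -2.23 to 1.07 (S3 vs S2 within LN), -3.74 to 0.52 (S2 vs S1 within MN) and -1.87 to 2.38 (S3 vs S2 within MN). NRT2.7 ranged from -0.55 to 0.035 (LN vs MN over S1 to S3), -0.23 to 0.57 (S2 vs S1 within LN) and -0.36 to 0.57 (S2 vs S1 within MN). NRT2.5 kept its sign from -5.47 to -4.29 (LN vs MN S1) and from 3.19 to 4.85 (S2 vs S1 within LN). In both comparisons the filter had set that sign. The count of genes called depended on the tool: for LN vs MN at S1, S2 and S3 edgeR called 2, 0 and 0, DESeq2 758, 1095 and 213 and limma 68, 133 and 0, and for S3 vs S1 within MN the counts were 0, 749 and 0. Over S1 to S3 they were 0, 260 and 14, for S2 vs S1, S3 vs S2 and S3 vs S1 within LN edgeR called 0, 0 and 0, DESeq2 497, 583 and 618 and limma 0, 1 and 33, for S2 vs S1 and S3 vs S2 within MN edgeR called 275 and 2, DESeq2 2860 and 1714 and limma 749 and 123, and for HN vs MN at S1, S2 and S3 edgeR called 24, 4 and 0, DESeq2 974, 1763 and 2215 and limma 114, 318 and 359. With all 27 libraries in 1 edgeR fit, LN vs MN gave 1, 41 and 0, LN vs MN over the stages 40, time within LN 0, 1 and 2, time within MN 841, 465 and 14, and HN vs MN 55, 67 and 79. At 1 to 5 reads in LN S1, counts limit the fold of NRT2.5.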
